A study of Mus musculus with 9 samples.

Results

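RNA levels of the Notch pathway were described here for 10 genes chosen by name. They were the receptors Notch1, Notch2 and Notch3, the ligands Jag1, Jag2 and Dll1, the glycosyltransferase Lfng, and the target genes Hes1, Hey1 and Heyl. All 10 were found among the 54838 gene identifiers of the count table, and 8 of them were abundant enough to be tested among 13153 genes. Each of these 8 passed the abundance filter in every library of all 3 groups. The remaining members, Notch3 and Heyl, were at or near 0 counts. The cells were PDA530 Met, a mouse pancreatic ductal adenocarcinoma (PDAC) line. It was established from the liver metastasis of a KPC mouse, a male, on a mixed 129/SvJae/C57Bl/6 background. KPC mice are a genetic model of this cancer. The knockout clone (E4) is 1 single-cell clone in which Zdhhc20, the gene of a palmitoyltransferase, was edited with CRISPR/Cas9. The control clone (C5) is 1 single-cell clone that was nucleofected with the guide RNAs used for E4, escaped editing and still expresses Zdhhc20. The parental cells were not cloned, and the design text writes their name as PDA50 Met. All 3 groups were untreated cultures with 3 libraries each, so the libraries of a clone are replicates of that clone and not of independent clones, and the effect of the edit and the identity of the clone cannot be told apart. The labels call the replicates biological without saying how the cultures were separated, so p-values measure the spread between these libraries.

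Notch receptors are single-pass proteins that are cut by ADAM metalloproteases and then by gamma-secretase when a ligand on a neighbouring cell pulls on them. The released intracellular domain enters the nucleus and joins RBPJ and a Mastermind protein to switch on target genes, of which the HES and HEY repressors are the best known. Fringe enzymes such as LFNG add sugars to the receptor and change which ligand it answers. In the pancreas the pathway acts in progenitor and ductal cells, and it is often reactivated during the change of acinar cells into duct-like cells that precedes PDAC.

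Library totals ranged from 16525869 to 23192701 counts. Zdhhc20 itself was at 33.9 to 42.5 CPM (reads of a gene relative to the TMM-scaled library total) in the knockout libraries, 85.8 to 123 in the control libraries and 75.3 to 90.7 in the parental libraries, with log2 fold changes of -1.53 and -1.12 in the knockout clone (adjusted p 6.97e-05 and 0.000585). Ductal identity was checked with 8 markers, whose summed level was 4340 to 4470 CPM in the E4 libraries, 7040 to 9410 in the control libraries and 6730 to 8210 in the parental libraries. The lower sum of the knockout clone moved with the group, and its part in the results on Notch genes was not tested. The markers did not move as 1: in clone E4 5 were called lower and 1 higher in each comparison. Of all tested genes, 24.2% were lower and 18.7% higher against clone C5, and 18.3% and 13.1% against the parental line. On the log2 scale Krt19 fell most, to a mean of 172 CPM from 1491 in the control clone and 1141 in the parental cells. Krt7 (mean 421 CPM) gave 0.09 on that scale against the parental cells (adjusted p 0.579). Epcam, the 1 called higher in the knockout clone, was at most 0.635 CPM in any library. It passed the abundance filter only in the knockout clone, so it had to differ to be tested. Markers of other cell types were near 0, but some sums moved with the groups: in knockout, control and parental libraries, 7 fibroblast markers summed to 0.818 to 1.67, 1.31 to 2.89 and 3.12 to 4.0 CPM, and 5 hepatocyte markers to 0.0977 to 0.175, 0.178 to 0.525 and 1.12 to 3.0. In the same order 4 acinar markers summed to 1.4 to 1.46, 4.4 to 7.66 and 1.97 to 3.47 CPM, and 6 leukocyte markers to 0.835 to 1.17, 1.43 to 2.66 and 1.25 to 2.0. The 6 endothelial markers reached at most 0.525 CPM. The part of these sums in the results was not tested either. Col1a2, Col3a1, Dcn, Lum, Emcn, Adgre1, Cd3e, Tyrobp, Serpina1a, Cpa1 and Ptf1a held no count. Control replicate 2 was the lowest of its group for Notch1, Dll1 and Hey1 and the highest for Notch2 and Lfng. Control replicates 1 and 3 were likewise the lowest or highest for several members, so this does not set replicate 2 apart. Without control replicate 2, the log2 fold changes of clone E4 against clone C5 were 0.14 for Notch1, 0.48 for Notch2, -1.47 for Dll1, 1.15 for Lfng and 0.36 for Hey1.

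Of the 8 tested members, clone C5 and clone E4 differed in 4 (50%), where 42.9% of all tested genes were called at an adjusted p under 0.05 in the quasi-likelihood test of edgeR. Lfng and Notch2 rose in clone E4 and Jag2 and Dll1 fell. Between clone E4 and the parental line 5 members were called (62.5%), against 31.4% of all genes, and all of them were lower in clone E4: Jag1, Jag2, Dll1, Hes1 and Hey1. Between clone C5 and the parental line 6 were called (75%), against 21.4% of all genes. Jag2 was higher in clone C5 there, and Notch1, Notch2, Jag1, Hes1 and Hey1 were lower. The median log2 fold change of the tested members was 0.11, -0.39 and -0.37 in these comparisons, beside -0.02, -0.01 and 0.01 over all tested genes. The libraries of the paired groups did not overlap for 6, 7 and 6 of the 8 members, where this held for 51.6%, 61.5% and 37.3% of all tested genes. The comparisons share libraries, so their counts are not independent. These counts also moved with single libraries: the first was 2 without knockout replicate 1, the second 3 without knockout replicate 3 or parental replicate 3, and the third 3 without knockout replicate 3, control replicate 1, parental replicate 1 or parental replicate 3. When only clone C5 and the parental line were fitted, the third was 2. In bulk RNA, fewer cells expressing a gene and less of its RNA per cell cannot be told apart.

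Among the tested members, Notch1 and Lfng had no group called apart from both others. The patterns of the other tested members follow, each with its share of all tested genes. Jag2 and Dll1 were lower in clone E4 than in both other groups, a state that 13.4% of all tested genes shared. Jag1, Hes1 and Hey1 were higher in the parental line than in both clones, as were 3.7% of all genes. Notch2 was lower in clone C5 than in both other groups (6.41% of all genes) and Jag2 was higher there (7.01% of all genes). Jag2 thus differed in every pair of groups, in the order control clone, parental cells, knockout clone.

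**Figure D1:**
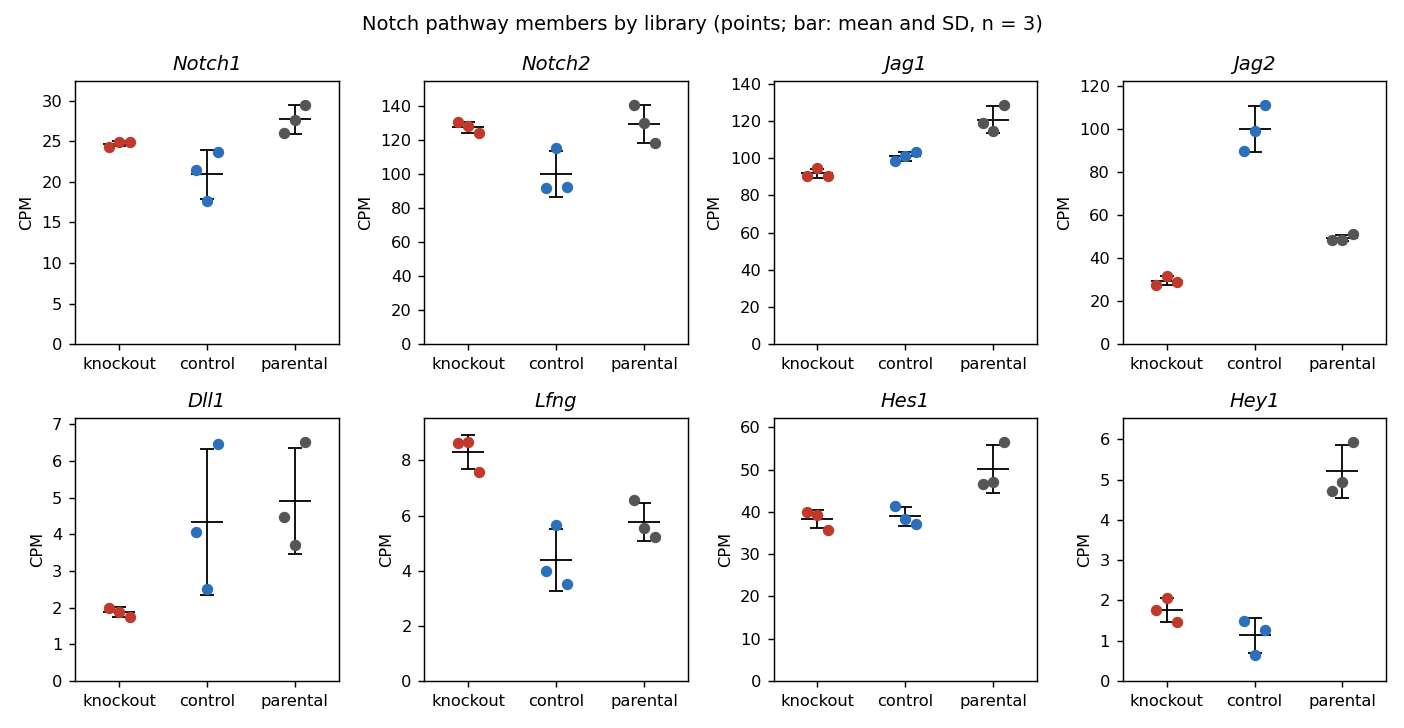
Level of the 8 tested members in CPM (vertical axes, linear from 0) in the 3 libraries of each group, with the mean and SD as bars. Jag2 separates all 3 groups, from 27.7 to 31.8 CPM in clone E4 to 89.7 to 111 CPM in clone C5, and Hey1 is highest in the 3 parental libraries.

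Promoter sequences from RefSeq (build GRCm38.p6, 250 bases before to 50 after a gene's start) were matched for 7 of the 10 members, and Hes1, Hey1 and Heyl were not matched. The core letters bound by RBPJ, TGGGAA, were searched on both strands, and 25.6% of all 32851 promoters of 300 bases held them. Among the matched members Lfng was the only one that held them, with a match starting 135 bases before the start on the minus strand and another starting 108 bases before it on the plus strand. The longer letters GTGGGAA, which contain the core, occurred 1 time there and in 6.38% of all promoters. Hes5, a classical Notch target with 0 counts in all 9 libraries, also held 2 matches, starting 226 and 82 bases before its start, as did the target Hey2 (27 counts in all), starting 207 and 3 bases before. The promoter of Nrarp, an expressed target, held none. The promoter of Jag2, the member with the largest difference between the clones, held none and was 86.0% G and C, beside a median of 52.7% over all promoters. A match is a description of letters and was not tested as a binding site. The promoters of Lfng (chr5:140607091-140607390, plus strand), Hes5 (chr4:154960673-154960972, plus strand) and Jag2 (chr12:112929446-112929745, minus strand) are shown because they are the contrast just described, with capitals at each TGGGAA or its reverse complement TTCCCA.
Lfng: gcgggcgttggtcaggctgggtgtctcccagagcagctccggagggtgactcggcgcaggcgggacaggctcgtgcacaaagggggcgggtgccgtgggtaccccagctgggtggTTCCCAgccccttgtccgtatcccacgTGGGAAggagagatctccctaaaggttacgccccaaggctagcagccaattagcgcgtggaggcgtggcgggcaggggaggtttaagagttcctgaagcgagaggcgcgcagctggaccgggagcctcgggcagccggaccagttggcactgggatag
Hes5: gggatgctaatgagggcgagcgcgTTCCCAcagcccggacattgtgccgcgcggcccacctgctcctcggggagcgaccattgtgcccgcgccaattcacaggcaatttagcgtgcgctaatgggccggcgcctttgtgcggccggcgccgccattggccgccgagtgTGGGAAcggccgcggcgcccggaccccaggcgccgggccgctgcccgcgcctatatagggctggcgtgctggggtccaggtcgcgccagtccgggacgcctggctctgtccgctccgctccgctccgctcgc
Jag2: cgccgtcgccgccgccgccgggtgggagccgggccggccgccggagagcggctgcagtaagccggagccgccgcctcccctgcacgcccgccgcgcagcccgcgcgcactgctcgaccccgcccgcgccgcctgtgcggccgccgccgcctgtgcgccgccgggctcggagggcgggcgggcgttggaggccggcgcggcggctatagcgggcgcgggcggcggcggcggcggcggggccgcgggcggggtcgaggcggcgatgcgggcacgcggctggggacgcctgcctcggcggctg

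Notch2 held most of the receptor RNA. Scaled to the summed length of its annotated exons, it was at 11.9 ± 0.308 CPM per kilobase in clone E4, 9.28 ± 1.26 in clone C5 and 12 ± 1.05 in the parental line (SD, n = 3). Notch1 was at 1.74 ± 0.0237, 1.47 ± 0.213 and 1.95 ± 0.122 CPM per kilobase in the same order. Of the summed length-scaled level of the 4 receptor genes, Notch2 held 87.0% ± 0.410 in clone E4, 84.1% ± 3.45 in clone C5 and 85.7% ± 1.78 in the parental line. The length-scaled receptor RNA was therefore mostly Notch2 in every library, with a share between 82.0% and 88.1%.

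For Notch2 (ENSMUSG00000027878, chromosome 3 from 98013527 to 98150361 in GRCm38, plus strand) the 3 knockout libraries were at 131, 129 and 124 CPM, the control libraries at 91.8, 116 and 92.7, and the parental libraries at 141, 130.1 and 118. All control libraries were lower than every library of the other groups, which overlapped each other. The log2 fold change was 0.35 for clone E4 against clone C5 (SE 0.10, adjusted p 0.0219) and -0.38 for clone C5 against the parental line (SE 0.10, adjusted p 0.0318). The difference between clone E4 and the parental line was -0.02, with a 95% interval from -0.26 to 0.21 (adjusted p 0.898). The first call was lost without knockout replicate 1 (adjusted p 0.0546) or control replicate 1 (0.0788). The second was lost without knockout replicate 3 (0.0529), control replicate 1 (0.0971), or parental replicates 1 (0.0977) or 2 (0.0736), and when only those groups were fitted (0.0936). Of the genes whose exons overlap Notch2 on the same strand, Gm42820 held 42 counts in all.

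Notch1 (ENSMUSG00000026923, chromosome 2 from 26457903 to 26516663, minus strand) was at 24.3, 24.9 and 24.9 CPM in the E4 libraries, 21.4, 17.7 and 23.7 in the control libraries and 26.0, 27.6 and 29.5 in the parental libraries. The 3 groups did not overlap, with the parental line highest and clone C5 lowest. Clone C5 was lower than the parental line by the test (log2 fold change -0.40, SE 0.11, adjusted p 0.0325). This call held without control replicates 2 or 3, was lost when any other library was left out (adjusted p up to 0.107, without parental replicate 3), and was lost when only those groups were fitted (0.0969). Clone E4 was 0.24 above clone C5 (adjusted p 0.116) and 0.16 below the parental line on the log2 scale (-0.16, adjusted p 0.296), and neither passed the test. Without control replicate 3 the first did, at 0.33 (adjusted p 0.0261). The overlapping genes 0610009E02Rik and Gm13568 on the opposite strand held 18 and 3 counts in all.

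Notch3 (ENSMUSG00000038146, chromosome 17 from 32120820 to 32166852, minus strand) held 1 count in control replicate 2 and 0 in the other 8 libraries. A count of 0 over the 3 knockout libraries allows up to 0.0542 CPM, and over the 3 parental libraries up to 0.0555 CPM; such limits cover counting error only. Notch4, a receptor best known from blood vessels, was low but differed between groups. The knockout libraries held 0.244, 0.223 and 0.234 CPM of it, against 2.75, 1.67 and 1.78 in the control libraries and 0.337, 0.413 and 0.235 in the parental libraries. Every control library lay above the others. Its log2 fold change was -3.15 for clone E4 against clone C5 (SE 0.36, adjusted p 0.000162) and 2.66 for clone C5 against the parental line (SE 0.34, adjusted p 0.00101), while clone E4 and the parental line gave -0.49 (adjusted p 0.486). Notch4 passed the abundance filter only through clone C5, so it had to differ to be tested.

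Jagged ligands made up most of the ligand RNA, and their balance differed between the clones. Jag1 was at 15.8 ± 0.434 CPM per kilobase in clone E4, 17.3 ± 0.399 in clone C5 and 20.7 ± 1.23 in the parental line (SD, n = 3). Jag2 was at 4.24 ± 0.300, 14.4 ± 1.55 and 7.10 ± 0.203 CPM per kilobase. The ratio of Jag1 to Jag2 per length was 3.89, 3.56 and 3.73 in the knockout libraries, 1.31, 1.22 and 1.11 in the control libraries and 2.93, 2.81 and 3.01 in the parental libraries. The ratio did not overlap between any 2 groups and was nearest to 1 in clone C5. Jag2 held 20.6% ± 0.785 of the summed level of 5 ligand genes in clone E4, 43.4% ± 1.74 in clone C5 and 24.2% ± 0.845 in the parental line. That sum was 20.5 ± 0.709, 33.1 ± 2.42 and 29.4 ± 1.81 CPM per kilobase, lowest in clone E4.

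**Figure D2:**
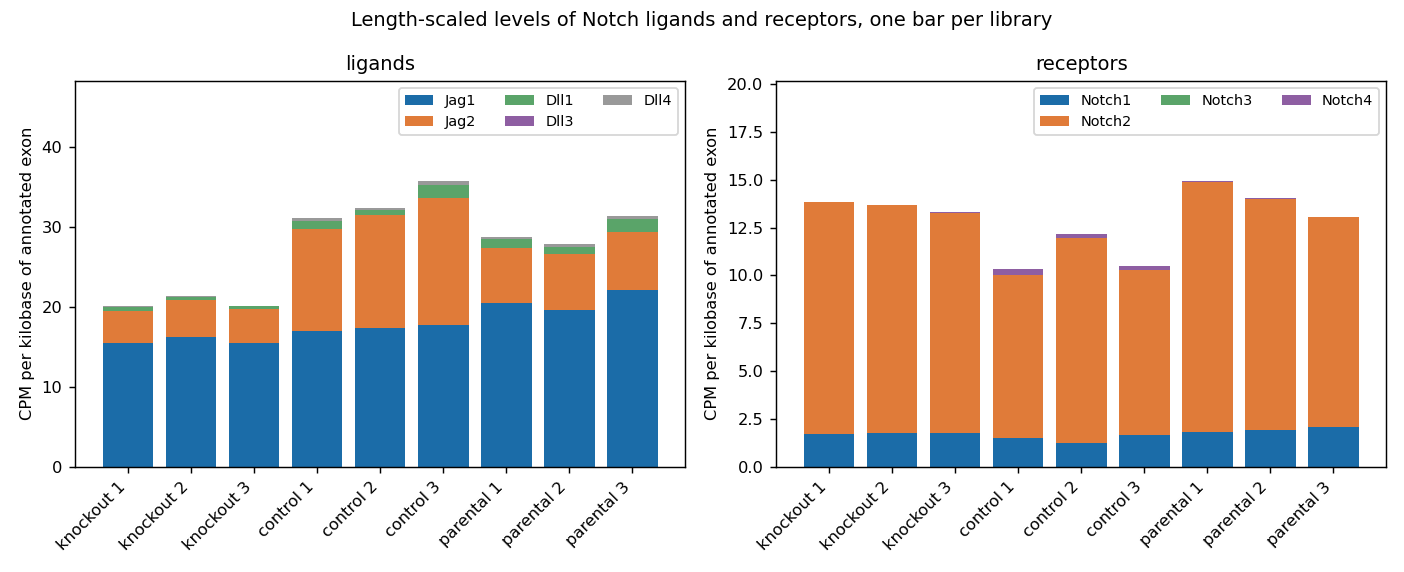
Length-scaled level (vertical axis, CPM per kilobase of annotated exon, from 0) of ligand genes, left, and receptor genes, right, stacked for each of the 9 libraries. Jag2 takes 41.4% to 44.6% of the ligand sum in control libraries and 19.9% to 21.4% in knockout libraries, while Notch2 fills most of every receptor bar.

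Jag2 (ENSMUSG00000002799, chromosome 12 from 112907819 to 112929776, minus strand) was at 27.7, 31.8 and 29.0 CPM in the E4 libraries, 89.7, 99.3 and 111 in the control libraries and 48.6, 48.7 and 51.1 in the parental libraries. No 2 groups overlapped. Clone E4 had 0.295 times the level of clone C5 (log2 fold change -1.76, SE 0.10, adjusted p 3.59e-06) and 0.597 times that of the parental line (-0.74, SE 0.10, adjusted p 0.000499). Clone C5 had 2.02 times the level of the parental line (1.02, SE 0.09, adjusted p 0.000194). All 3 calls held in the 17 alternatives run for each. The other tested genes of chromosome 12 moved in part with Jag2: their median log2 fold changes were -0.25, 0.02 and 0.29 in these comparisons, and those of the 20 tested genes nearest to Jag2 were -0.38, -0.08 and 0.36. The part of the chromosome in the result was not tested.

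Jag1 (ENSMUSG00000027276, chromosome 2 from 137081456 to 137116644, minus strand) differed less. The knockout libraries were at 90.3, 94.8 and 90.5 CPM, the control libraries at 98.6, 101 and 103, and the parental libraries at 119, 115 and 129. No 2 groups overlapped, and the parental line was highest. The log2 fold change was -0.40 for clone E4 against the parental line (SE 0.07, adjusted p 0.00261), a call that held in all 17 alternatives. It was -0.26 for clone C5 against the parental line (SE 0.07, adjusted p 0.0277). This second call ended when no filter was set (adjusted p 0.0928), when only those groups were fitted (0.0905), and without knockout replicate 3 (0.05004), control replicate 1 (0.0749), or parental replicates 1 (0.0701) or 3 (0.0875). Between the clones Jag1 differed by -0.14 (adjusted p 0.14), which did not pass.

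Delta-like ligands were scarce. Dll1 (ENSMUSG00000014773, chromosome 17 from 15367354 to 15376872, minus strand) was at 2.0, 1.89 and 1.75 CPM in the E4 libraries, 4.06, 2.498 and 6.46 in the control libraries and 4.48, 3.71 and 6.53 in the parental libraries. All knockout libraries were lower than the others, which overlapped. The log2 fold change was -1.21 against clone C5 (SE 0.35, adjusted p 0.0197) and -1.38 against the parental line (SE 0.35, adjusted p 0.0151). The first call was lost without knockout replicates 1 (adjusted p 0.0561), 2 (0.0593) or 3 (0.0643) or control replicate 3 (0.0535), and the second without knockout replicate 3 (0.0556) or parental replicate 3 (0.0671). Dll4, a ligand best known from sprouting vessels, was at 0.342, 0.223 and 0.234 CPM in the E4 libraries, against 1.353, 0.654 and 2.1 in the control libraries and 1.301, 1.53 and 1.76 in the parental libraries. It was called lower in clone E4 against both (log2 fold changes -2.36 and -2.51, adjusted p 0.00343 and 0.00365), but passed the abundance filter only through the other groups. Dll3 held 1 count in all and Dlk1 held 0. Dlk2, a related non-activating ligand, was called in no comparison, with its highest value, 25.6 CPM, in control replicate 2.

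Lfng (ENSMUSG00000029570, chromosome 5 from 140607320 to 140615545, plus strand) had the largest rise of the members in clone E4 against clone C5. The knockout libraries were at 8.64, 8.68 and 7.59 CPM, the control libraries at 3.97, 5.65 and 3.52, and the parental libraries at 6.55, 5.54 and 5.24. Every knockout library lay above the other 6, and the control and parental libraries overlapped. The log2 fold change against clone C5 was 0.93 (SE 0.19, adjusted p 0.00381), which held in 17 of 17 alternatives. Against the parental line it was 0.52 (SE 0.19, adjusted p 0.0606) and did not pass. That comparison passed with DESeq2 (adjusted p 0.0432), with limma voom (0.0454), when only those groups were fitted (0.00682), and without control replicates 2 (0.0131) or 3 (0.0293). Without control replicate 2, Lfng was also called lower in clone C5 than in the parental line (-0.63, adjusted p 0.0184).

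Hes1, a repressor that is the most widely used readout of Notch activity, was the most abundant target among the members Hes1, Hey1 and Heyl. Of their length-scaled sum Hes1 held 97.2% ± 0.351 in clone E4, 98.2% ± 0.621 in clone C5 and 93.9% ± 0.118 in the parental line (SD, n = 3). Hes1 (ENSMUSG00000022528, chromosome 16 from 30064384 to 30067796, plus strand) was at 39.8, 39.3 and 35.7 CPM in the E4 libraries, 41.3, 38.2 and 37.2 in the control libraries and 46.6, 47.1 and 56.6 in the parental libraries. The clones overlapped, and the 3 parental libraries lay above all 6 clone libraries. The difference between the clones was -0.02 on the log2 scale, with a 95% interval from -0.24 to 0.20 (adjusted p 0.868), and its sign changed with scaling by total counts and without single libraries. Against the parental line the log2 fold change was -0.39 for clone E4 (SE 0.10, adjusted p 0.0152) and -0.36 for clone C5 (SE 0.10, adjusted p 0.0275). The first was lost without knockout replicate 3 (adjusted p 0.0688) or parental replicate 3 (0.0674), and the second without parental replicate 3 (0.0885) and when only those groups were fitted (0.0805). The other genes of chromosome 16 were also lower in clone E4, with a median of -0.29 against the parental line and -0.35 against clone C5, and 0.06 between clone C5 and the parental line. The part of the chromosome was not tested.

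Hey1 (ENSMUSG00000040289, chromosome 3 from 8663359 to 8667256, minus strand), a related repressor, was at 1.76, 2.06 and 1.46 CPM in the E4 libraries, 1.48, 0.654 and 1.26 in the control libraries and 4.72, 4.95 and 5.94 in the parental libraries. Every parental library was higher than all 6 clone libraries, and the clones overlapped. Clone E4 had 0.339 times the parental level (log2 fold change -1.56, SE 0.28, adjusted p 0.0026) and clone C5 0.221 times (-2.18, SE 0.29, adjusted p 0.00114). Both calls held in the 16 alternatives in which Hey1 was tested. The median over the other tested genes of chromosome 3 was 0.02 and 0.01 in these comparisons. Between the clones Hey1 differed by 0.61 (adjusted p 0.124), with a 95% interval from -0.06 to 1.29, and did not pass. Heyl (ENSMUSG00000032744, chromosome 4 from 123233556 to 123249875, plus strand) held 0 counts in all 9 libraries, which allows up to 0.0501 CPM over the control libraries and up to 0.0555 over the parental libraries.

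**Figure D3:**
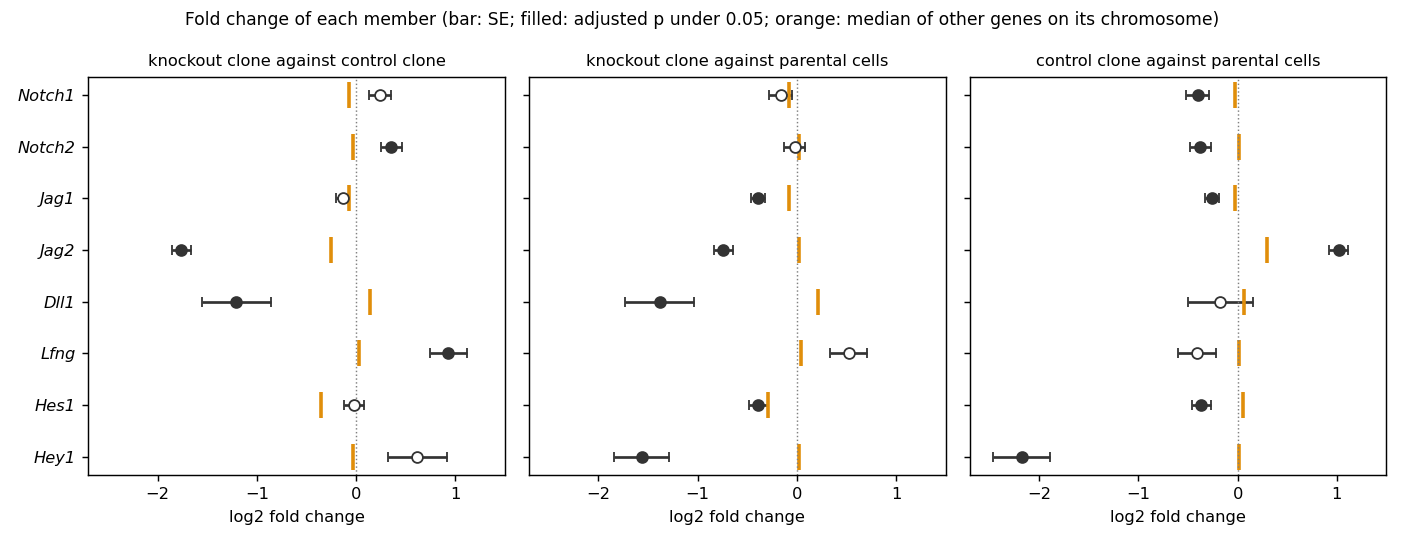
Log2 fold change (horizontal axis) of the 8 tested members in each comparison with its SE as a bar, filled where the adjusted p was under 0.05, and the median of the other tested genes on the same chromosome in orange. Jag2 lies at -1.76, -0.74 and 1.02, and Hey1 at -1.56 and -2.18 against the parental line.

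A set of 50 genes of the pathway outside the 10 members was listed by role, and 42 of them were tested. Of these, 9 were higher and 17 lower in E4 than in C5 (18.7% and 24.2% of all tested genes), 8 higher and 12 lower than in the parental line (13.1% and 18.3%), and 8 higher and 2 lower in clone C5 than in the parental line (10.4% and 11.0%). These counts include Notch4 and Dll4, which passed the abundance filter in no knockout library, and Notch4 in no parental library either, so they had to differ to be tested. The second count, 20, was 13 without knockout replicate 1 or parental replicate 2 and 12 without parental replicate 3. The third, 10, was 17 without control replicate 3, 4, 3 and 5 without parental replicates 1, 2 and 3 in turn, and 4 when only those groups were fitted. Their median log2 fold changes were -0.24, 0.05 and 0.07.

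Other enzymes that add sugars to Notch receptors were lower in clone E4 than in clone C5: all 3 tested genes of this list were called lower there, against 24.2% of all tested genes. Against the parental line 2 of 3 were called lower in clone E4 (18.3% of all genes), and 2 of 3, Poglut1 and Rfng, were called higher in clone C5 (10.4% of all genes). Both of the latter calls were lost without parental replicate 1 (adjusted p 0.103 and 0.0518) or 2 (0.0680 and 0.0525), and that of Poglut1 also without control replicate 1 (0.0798) or parental replicate 3 (0.0941) and when only those groups were fitted (0.0735). Poglut1, which adds glucose to the receptor, was at 18.3, 16.0 and 16.3 CPM in the E4 libraries, 54.6, 59.4 and 43.4 in the control libraries and 37.6, 40.9 and 37.6 in the parental libraries. The groups did not overlap, and clone E4 had a log2 fold change of -1.64 against clone C5 (SE 0.12, adjusted p 1.96e-05) and of -1.20 against the parental line (SE 0.12, adjusted p 0.000154). Pofut1, which adds the fucose that fringe enzymes extend, had -0.72 (adjusted p 0.00447) and -0.61 (adjusted p 0.0141); the second was lost without knockout replicate 2 (0.0527) or parental replicate 2 (0.0511). Rfng, another fringe enzyme, fell against clone C5 (-0.58, adjusted p 0.00107) and gave -0.13 against the parental line (adjusted p 0.313). Mfng held 0 counts.

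Of 9 genes that process receptors and ligands, 2 were higher and 5 lower in clone E4 than in clone C5, where 18.7% and 24.2% of all tested genes were. Against the parental line 1 was higher and 4 lower in clone E4 (13.1% and 18.3% of all genes), and 1 was higher and 0 lower in clone C5 (10.4% and 11.0% of all genes). Adam10 and Psen2 were picked for mention after their values were seen. Adam10, the main protease that cuts ligand-bound Notch, was at 201, 198 and 204 CPM in the E4 libraries, 397, 293 and 417 in the control libraries and 405, 400 and 441 in the parental libraries. It fell by 0.87 on the log2 scale against clone C5 (SE 0.12, adjusted p 0.000476) and by 1.05 against the parental line (SE 0.12, adjusted p 0.000303). Psen2, a catalytic subunit of gamma-secretase, moved the other way, by 1.16 (adjusted p 0.00188) and 0.98 (adjusted p 0.0066). Of 10 tested genes of ligand endocytosis and receptor turnover, 5 were called between the clones, 4 between clone E4 and the parental line and 3 between clone C5 and the parental line, where 42.9%, 31.4% and 21.4% of all tested genes were called. Dtx4, a Deltex ubiquitin ligase, rose to 66.1, 57.9 and 73.5 CPM in the E4 libraries, from 21.9 to 36.3 in the control libraries and 30.9 to 32.0 in the parental libraries (log2 fold changes 1.24 and 1.07, adjusted p 0.000436 and 0.00145).

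The nuclear list held 13 genes, of which 5 were higher and 3 lower in clone E4 in each of its comparisons, where 42.9% and 31.4% of all tested genes were called. Between clone C5 and the parental line 1 was called, where 21.4% of all tested genes were. Rbpj, the DNA-binding partner of the Notch intracellular domain, was at 225, 185 and 233 CPM in the E4 libraries, 156, 174 and 182 in the control libraries and 153, 152 and 132 in the parental libraries. Every knockout library was above the others. The log2 fold change was 0.56 against the parental line (SE 0.11, adjusted p 0.00422) and 0.33 against clone C5 (SE 0.11, adjusted p 0.0342), the latter lost without knockout replicates 1 (0.0972) or 3 (0.120) or control replicate 1 (0.113) and when only those groups were fitted (0.0512).

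Of 7 other target genes 4 were tested, and in clone C5 against the parental line 2 of them were called higher and 0 lower (10.4% and 11.0% of all tested genes). In clone E4 0 were higher and 1 lower than in clone C5 (18.7% and 24.2% of all genes), and 0 were called against the parental line (31.4% of all genes). Nrarp, a target that feeds back on the Notch complex, was at 39.3, 35.9 and 37.8 CPM in the E4 libraries, 56.0, 51.8 and 36.0 in the control libraries and 31.5, 32.7 and 35.2 in the parental libraries. It was higher in clone C5 than in the parental line (log2 fold change 0.53, SE 0.15, adjusted p 0.0304), a call lost when only those groups were fitted (0.0862) and without any 1 library except control replicates 2 or 3 (adjusted p up to 0.114, without parental replicate 1). In clone E4 it gave -0.35 against clone C5 (adjusted p 0.0821) and 0.19 against the parental line (adjusted p 0.367). The first passed without control replicate 3 (-0.52, adjusted p 0.00086), and the second when only those groups were fitted (adjusted p 0.0367). Ccnd1, the gene of cyclin D1 and a target of several pathways, was higher in clone C5 than in the parental line (0.45, adjusted p 0.0106) and lower in clone E4 than in clone C5 (-0.40, adjusted p 0.00871). Hes6 and Sox9 were called in no comparison. Hes5 held 0 counts, Hey2 27 and Hes7 25 over all 9 libraries.

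**Figure D4:**
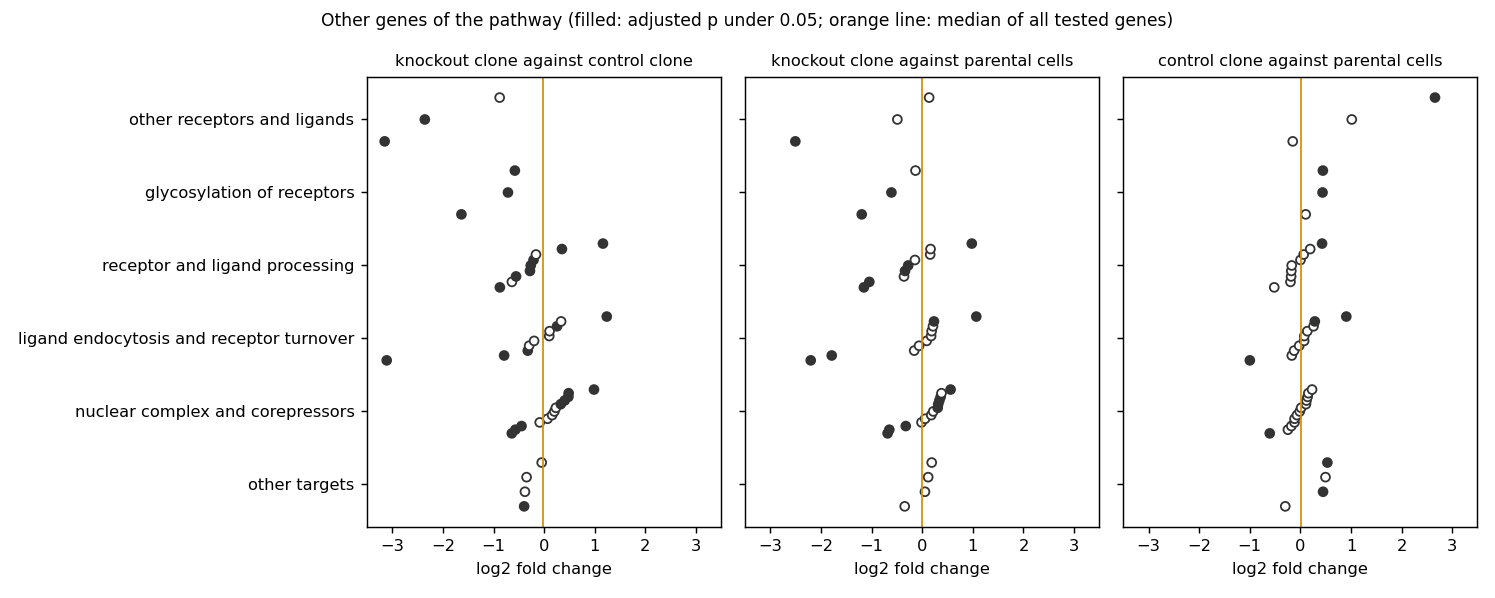
Log2 fold change (horizontal axis) of 42 tested genes of the pathway outside the members, grouped by role, in each comparison. Filled points had an adjusted p under 0.05 and the orange line marks the median of all tested genes; the glycosylation genes lie between -1.64 and -0.58 in clone E4 against clone C5.

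For 3 members the nearest genes over the 9 libraries were found by the root mean square difference of log2 CPM after centring each gene. Genes were not scaled to an equal spread, so the size of a change counts as well as its direction. For Notch1 these were Flot1 (0.0426), Erbin (0.0511) and Abhd5 (0.0556). Jag1 was nearest to Ciao1 (0.0436), Hira (0.0522) and Ccdc50 (0.0569). For Hes1 they were Zdhhc4 (0.0516), Ext2 (0.0572) and Ring1 (0.0663). Among the members themselves, Jag1 was the nearest to Hes1, at rank 18 of all tested genes (0.0916). The other members lay farther from Hes1, from 0.172 for Notch1 at rank 744 to 0.789 for Hey1 at rank 11691. Hey1 was, like Hes1, called higher in the parental line than in both clones, but with larger log2 fold changes. The genes share the same libraries, so nearness is a description.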

How the data were processed

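RNA-seq libraries were made from total RNA with the KAPA mRNA HyperPrep kit, per the labels. The authors deposited RSEM expected counts per gene, 1 column per library, and all values were whole numbers. RSEM 1.3.0, STAR 2.5.2, DESeq2 1.10.1 and build GRCm38 are named in the submitters' processing notes without roles. The annotation and strand setting are not given in the sources used here. Symbols, positions and exon lengths came from GENCODE M21 (GRCm38), which held 54809 of 54838 identifiers.

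Testing used edgeR 4.0.16 (quasi-likelihood, R 4.3.3) after filterByExpr (minimum count 10, minimum total 15) and TMM scaling, in 1 fit of all 9 libraries with group as the only term. Benjamini-Hochberg adjustment ran over 13153 genes and genes were called under 0.05. SE is the absolute log2 change over root F. CPM per kilobase divides by the summed length of all annotated exons. Centred log2 CPM used a prior count of 2.

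The members, gene lists and rules were chosen with earlier results of these data known. Named genes are the members, Zdhhc20, Rbpj, all other listed receptors, ligands and targets, and other listed genes called the same way in both knockout comparisons with a log2 change of 1 or more in size and 5 CPM or more on average in the higher group; Poglut1 and Dtx4 met this. Pofut1, Rfng and Mfng complete their short list, and Adam10, Psen2 and Dtx3 fall outside the rule and were picked after their values were seen. For Notch1, Jag1 and Hes1 the 3 genes nearest in centred log2 CPM are also named.

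Within groups the lowest chi-square per gene between libraries was 4.92, so none was a duplicate. The test was checked on simulated data. The single value of 1 listed marker is not reported here. Alternatives were DESeq2 1.42.0 or its size factors, total counts, limma 3.58.1 voom, other filters, a replicate block, fitting just the 2 groups compared, and each library left out.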

Additional observations from a re-analysis of the deposited data

How the results depend on the processing

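Over the 8 tested members and 3 comparisons, 355 of 402 alternative values kept their direction and their side of the threshold, 33 lost a call, 7 gained one and 7 changed sign. The sign changes were all in values that were not called. Between the clones, Hes1 was 0.0102 with total counts, 0.0295 without knockout replicate 3 and 0.0235 without control replicate 1, and ran down to -0.0553 with 1 library left out. Notch2 in clone E4 against the parental line was 0.00125 without knockout replicate 3 and 0.0432 without parental replicate 1, and ran down to -0.0848. In clone C5 against that line, Dll1 was 0.0925 without control replicate 2 and 0.0719 without parental replicate 3 and ran down to -0.565. Without control replicate 2, Dll4 was 0.166 (lowest -0.575) and Pofut1 -0.0275 (highest 0.281) there.

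The fit of only the groups compared called 6840 genes in place of 4131 between clone E4 and the parental line. Between clone C5 and the parental line it called 1525 in place of 2814, and 2 members in place of 6. The cause was not tested. A mean of at least 5 CPM left 3 members called between clone E4 and the parental line, since Dll1 and Hey1 were no longer tested. Leaving out 1 library gave 4301 to 7204 genes and 2 to 4 members between the clones, 2515 to 5693 genes and 3 to 6 members between clone E4 and the parental line, and 1472 to 4102 genes and 3 to 7 members between clone C5 and the parental line.

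Libraries with the same replicate number did not deviate together: their correlations ran from -0.134 to 0.212, and 3 of 9 libraries correlated best with their own number. With the replicate number as a block, 5528, 3941 and 2492 genes and 4, 5 and 4 members were called in the 3 comparisons. The calls of Jag1 (adjusted p 0.0527) and Hes1 (0.0535) in clone C5 against the parental line and of Rbpj between the clones (0.0576) were lost under the block. Counts of Dll1 (630 in all libraries) and Hey1 (450) limit the precision of both.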

Other observations

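The balance of the target genes Hes1 and Hey1 also differed between the groups. Per length, Hes1 was 36.3, 30.6 and 39.2 times Hey1 in the knockout libraries, 44.6, 93.7 and 47.3 times in the control libraries, and 15.8, 15.2 and 15.3 times in the parental libraries. The parental ratios lay below those of all 6 clone libraries, and the highest one, in control replicate 2, rests on 11 counts of Hey1. Dtx3, a Deltex gene under the mean of 5 CPM asked of named genes and picked after its values were seen, was at 0.467 to 0.635 CPM in the E4 libraries, 3.99 to 6.40 in the control libraries and 2.18 to 3.01 in the parental libraries.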
